A study of Mus musculus with 26 samples.

Results

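Gata6, Gata4, Sox17, Sox7, Foxa2, Pdgfra and Dab2 are 7 genes that mark or direct the primitive endoderm. They were chosen by name, without a threshold on any value. These members and the gene lists below were chosen with earlier results of these data known, so their counts beside all genes are descriptions. All 7 had a value in the RNA table of 15646 genes. Each had at least 1 baited fragment among the 19022 baited fragments of the contact lists. Together they carried 8 baited fragments, since Dab2 had 2. On GRCm38 the baits were at chr18:11050554-11056589 (Gata6), chr14:63271604-63277887 (Gata4), chr1:4495519-4498339 (Sox17), chr14:63940467-63945495 (Sox7), chr2:148036715-148056726 (Foxa2), chr5:75151403-75152392 (Pdgfra) and chr15:6299406-6299862 and chr15:6324335-6330923 (Dab2). Each gene had its annotated start within its bait, and only the second bait of Dab2 lay inside the gene without the start. The members were examined for RNA in 3 cell states, for the promoter contacts of their baits, and for whether a rise without Nanog went with a change in contacts.

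The primitive endoderm is the extraembryonic layer that forms beside the epiblast in the inner cell mass of the mouse blastocyst, and it later gives rise to the visceral and parietal endoderm of the yolk sac. FGF signalling through ERK favours this fate, while the homeodomain factor NANOG favours the epiblast and opposes GATA6. GATA6 acts at the top of the programme, and GATA4, SOX17 and SOX7 follow it. PDGFRA is a receptor tyrosine kinase on these cells, and DAB2 is an endocytic adaptor that they need for their epithelial order. FOXA2 is a forkhead factor of the visceral endoderm that also marks definitive endoderm.

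Promoter Capture Hi-C (PCHi-C), in which ligation products that contain a promoter fragment are enriched with RNA baits, and RNA-seq were compared between WT ESCs, Nanog-/- ESCs and EpiSCs. WT ESCs were the E14Tg2a line, of 129P2/OlaHsd background, and Nanog-/- ESCs were RCNβH-B(t) cells, a Nanog-null line derived from it, so every Nanog-/- value came from 1 line. Both were grown on gelatin in serum with LIF, and the Nanog-/- line also received hygromycin during expansion. EpiSCs were an embryo-derived 129S2 line, grown on fibronectin in N2B27 with Activin A and bFGF, so cell state, strain and medium cannot be told apart in any EpiSC comparison. The sample labels give the strain as C57BL/6, which differs from these lines.

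The RNA table gave 1 median RPKM (read number per kilobase of gene, scaled to library size) for each state, over 3 WT ESC, 3 Nanog-/- ESC and 4 EpiSC samples, and the contact lists were each combined over replicates. No value therefore has a replicate error, no difference was tested, and every count below compares 3 pooled values. EpiSC values were divided by 1.88, the median EpiSC to WT ESC ratio over 8951 genes at 1 RPKM or more in all 3 states. Differences are of log2(RPKM + 1), which understates the change of low genes, and a gene was counted as higher or lower past a difference of 1, a 2-fold change on that scale. Sequencing depth is not given by these files. The contact lists held 100492 different fragment pairs in WT ESCs, 74931 in Nanog-/- ESCs and 87369 in EpiSCs.

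Nanog itself stood at 418 RPKM in WT ESCs, 22.3 in Nanog-/- ESCs and 192 in EpiSCs (scaled). Its difference between Nanog-/- and WT ESCs, -4.17 on the log2 scale, was the lowest of all genes, which fits the genotype label. The general pluripotency genes Pou5f1 (1159 and 1129 RPKM) and Sox2 (397 and 364 RPKM) were close in WT and Nanog-/- ESCs. Of 9 naive pluripotency genes, 3 were 2-fold lower without Nanog (Nanog, Dppa3 and Klf4), beside 1.35% of all genes. All 9 were lower in EpiSCs, beside 9.64%. In EpiSCs, Pou5f1 stood at 755 RPKM (scaled), and the naive factor Esrrb stood at 0.412 RPKM against 210.4 in WT ESCs.

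Without Nanog, 6 of the 7 members were over 2-fold higher than in WT ESCs, beside 1.69% of all 15646 genes. None was lower. The median difference of the members was 2.85 on the log2 scale, against 0.01 over all genes. In WT ESCs the members lay between 0.127 and 1.47 RPKM, and only Gata4 and Dab2 reached 1 RPKM. In Nanog-/- ESCs all 7 reached it, with a range of 2.54 to 18.5 RPKM. These are levels in bulk cultures, in which a few cells with much RNA and many cells with little RNA cannot be told apart.

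Gata6 had the largest rise of the members, followed by Sox7 and Gata4. Gata6 stood at 0.538 RPKM in WT ESCs, 16.4 in Nanog-/- ESCs and 4.34 in EpiSCs (scaled). The difference between Nanog-/- and WT ESCs was 3.50 on the log2 scale, and no gene of the table rose more. Gata4, which shares targets with Gata6, stood at 1.29 RPKM in WT ESCs, 18.5 in Nanog-/- ESCs and 0.519 in EpiSCs. It was the highest member in Nanog-/- ESCs, with a difference of 3.09 from WT ESCs, and 4 genes rose more. The GATA factors thus rose together without Nanog and lay on opposite sides of their WT ESC level in EpiSCs, with differences of 1.80 for Gata6 and -0.59 for Gata4.

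Sox17 and Sox7 are related HMG-box factors, both known in endoderm and in endothelium. Sox7 stood at 0.127 RPKM in WT ESCs, 9.18 in Nanog-/- ESCs and 0.190 in EpiSCs. Its level was high in Nanog-/- ESCs only, with a difference of 3.18 from WT ESCs (2 genes rose more) and of 3.10 from EpiSCs. Sox17 stood at 0.237 RPKM in WT ESCs, 5.93 in Nanog-/- ESCs and 6.68 in EpiSCs. Its differences from WT ESCs were 2.49 without Nanog and 2.63 in EpiSCs, so the levels of Sox17 in Nanog-/- ESCs and EpiSCs lay within 0.15 of each other on the log2 scale (EpiSCs stood at 12.6 RPKM before scaling).

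Foxa2 was the exception. It stood at 0.831 RPKM in WT ESCs, 2.54 in Nanog-/- ESCs and 48.1 in EpiSCs. Its difference without Nanog was 0.95, just under the 2-fold line, and 307 genes rose more, while in EpiSCs the difference was 4.74 and 9 genes rose more. The place under the line depends on the 1 RPKM added, since the RPKM ratio without Nanog was 3.05. With 0.5 RPKM added instead, the difference was 1.19, past the line. Foxa2 was the only member lower in Nanog-/- ESCs than in EpiSCs past the 2-fold line, with a difference of -3.80.

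The receptor and the adaptor rose in both states. Pdgfra stood at 0.938 RPKM in WT ESCs, 9.20 in Nanog-/- ESCs and 5.39 in EpiSCs, with differences from WT ESCs of 2.40 and 1.72. Dab2 stood at 1.47 RPKM in WT ESCs, 16.8 in Nanog-/- ESCs and 6.16 in EpiSCs, with differences of 2.85 and 1.54. In Nanog-/- ESCs 15 genes rose more than Pdgfra and 6 rose more than Dab2.

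**Figure D1:**
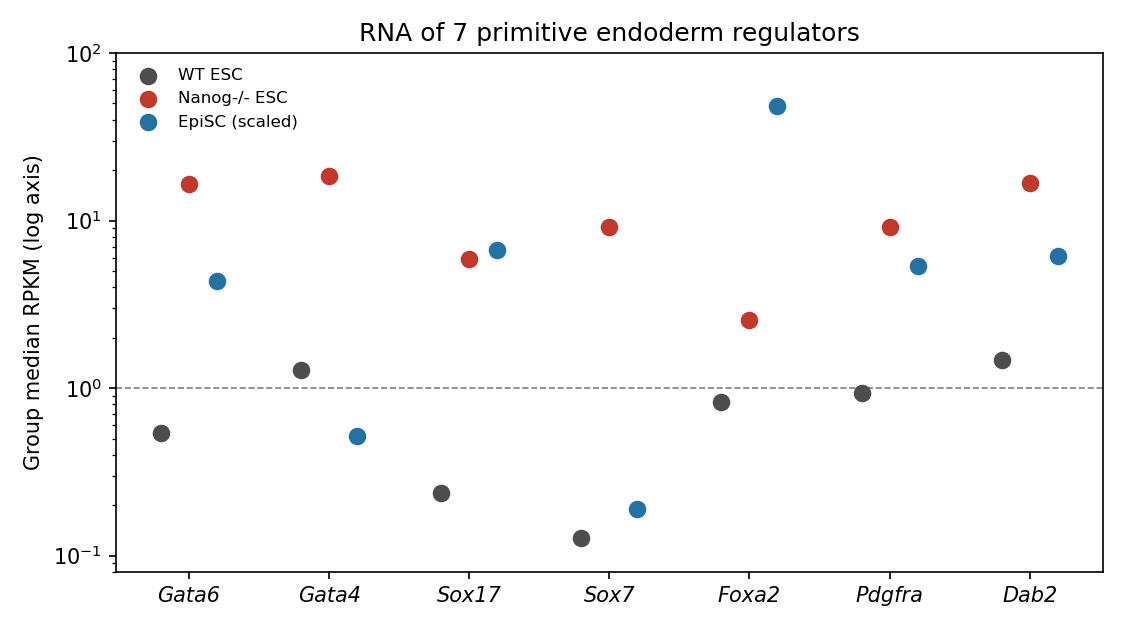
Group median RPKM (log axis) of the 7 members in WT ESCs (grey), Nanog-/- ESCs (red) and EpiSCs after scaling (blue), 1 pooled value per point, with a dashed line at 1 RPKM. All 7 red points lie above 1 RPKM and above the grey points, Sox7 and Gata4 are low in EpiSCs at 0.190 and 0.519 RPKM, and Foxa2 is highest in EpiSCs at 48.1 RPKM.

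In EpiSCs 5 of the 7 members (Gata6, Sox17, Foxa2, Pdgfra and Dab2) were over 2-fold higher than in WT ESCs, beside 10.5% of all genes, and Gata4 and Sox7 lay between the lines. Set directly against EpiSCs, Nanog-/- ESCs had 4 members over 2-fold higher (Gata6, Gata4, Sox7 and Dab2), beside 10.3% of all genes, and 1 lower (Foxa2), beside 9.27%. This comparison shares its values with the other pair. Without the scaling of EpiSCs only Gata4 and Sox7 remained over 2-fold higher in Nanog-/- ESCs than in EpiSCs, with Gata6 at 0.93 and Dab2 at 0.50.

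Markers of other cell types moved with the EpiSC values. In EpiSCs 11 of 13 definitive endoderm and mesendoderm genes were 2-fold higher than in WT ESCs, beside 10.5% of all genes. Among them were T (3.37 to 235.9 RPKM) and Cer1 (1.42 to 124 RPKM). Higher too were 6 of 7 fibroblast genes, whose summed level went from 66.0 to 262 RPKM. Cer1, Hhex and Foxa1 are also among the wider primitive endoderm genes read below. In Nanog-/- ESCs none of the 13 definitive endoderm and mesendoderm genes was higher, beside 1.69% of all genes. Lower were 3 (Fgf8, Cer1 and T), beside 1.35%, with Cer1 at 0 RPKM. Of 7 fibroblast genes, Postn (1.66 to 4.54 RPKM) was higher without Nanog. Hand1 (0.705 to 4.49 RPKM) was the only higher gene both of 6 trophectoderm genes and of 5 mesoderm genes. Their part in the levels of the members was not tested.

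The wider primitive endoderm programme was read from 59 other genes, of which 49 had a value. Without Nanog 11 of these 49 were over 2-fold higher and 2 were lower (beside 1.69% and 1.35% of all genes), and their median difference was 0.49. Srgn, a proteoglycan core protein, rose from 0.761 to 14.7 RPKM. Cubn and Amn, which form the cubam endocytic receptor of the visceral endoderm, rose from 0.392 to 7.65 RPKM and from 2.35 to 11.7 RPKM. The forkhead factor Foxq1 rose from 0.992 to 8.79 RPKM, and Sox18 from 1.25 to 6.63 RPKM.

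Basement membrane genes, which parietal endoderm makes in large amounts, were in part among those that rose. Lama1, a laminin chain, went from 11.2 to 49.0 RPKM, and Col4a2 from 5.52 to 27.6 RPKM. Lamb1 (37.0 and 48.7 RPKM) and Lamc1 (93.1 and 130.8 RPKM) stayed between the lines. The receptor Pth1r rose from 0.975 to 5.39 RPKM. Afp and Ttr, secreted by mature visceral endoderm, were near 0 in every state, with Afp at most 0.0569 RPKM and Ttr at most 0.0649 RPKM. The 2 lower genes were Cer1 and the glypican Gpc3 (62.4 to 19.0 RPKM).

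EpiSCs had 23 of the 49 genes higher and 6 lower, beside 10.5% and 9.64% of all genes, with the largest differences at Cer1 (5.69), Bmp2 (4.22), Dkk1 (4.08) and Foxa1 (3.82). Of the genes named above as higher without Nanog, some were low in EpiSCs, as Gata4 and Sox7 were. Srgn stood at 0.105 RPKM in EpiSCs, Cubn at 0.0744, Amn at 0.416, Sox18 at 0.303 and Lama1 at 1.79, whereas Foxq1, Col4a2 (25.8) and Pth1r (8.57) were higher there than in WT ESCs. Foxa1 was like Foxa2, with 0.330 RPKM in WT ESCs, 1.15 in Nanog-/- ESCs and 17.8 in EpiSCs.

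**Figure D2:**
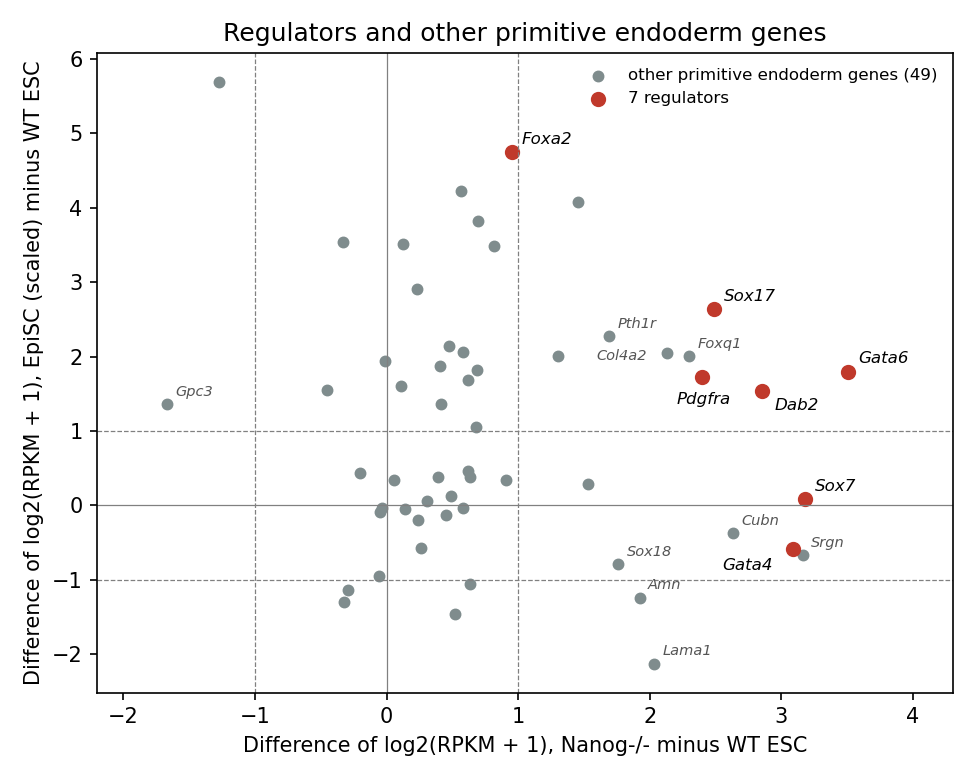
Differences of log2(RPKM + 1) from WT ESCs in Nanog-/- ESCs (x axis) and EpiSCs after scaling (y axis) for the 7 members (red) and 49 other primitive endoderm genes (grey), which share the WT ESC value on both axes, with dashed lines at 2-fold. Sox7 and Gata4 lie at 3.18 and 3.09 on the x axis near Srgn and Cubn with y values close to or below 0, while Foxa2 lies at 0.95 on the x axis and 4.74 on the y axis.

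Genes of FGF and PDGF signalling, the input to this fate, were read from a list of 24, of which 22 had a value. Without Nanog 5 were over 2-fold higher and 3 lower, beside 1.69% and 1.35% of all genes, and the median difference was 0.03. Those higher included transcripts that ERK activity is known to raise, namely Etv4 (30.1 to 132 RPKM), Spry4 (34.0 to 110.5 RPKM), Dusp4 (24.5 to 78.2 RPKM) and Dusp6 (34.8 to 96.8 RPKM), while Etv5, of the same kind, went from 299 to 209 RPKM. The ligand Fgf10 rose from 0.861 to 3.65 RPKM, and those lower were the ligands Fgf8, Fgf5 and Pdgfc. Fgf4, the main ESC ligand, was at 151 and 83.6 RPKM. The receptors were between the lines, with Fgfr1 at 26.0 and 24.8 RPKM, Fgfr2 at 10.3 and 12.6 RPKM, and Pdgfrb at 3.77 and 4.23 RPKM.

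By distance between the pairs of differences from WT ESCs, the 5 genes nearest to the members' median profile among 10722 genes at 1 RPKM or more in at least 1 state were Gpnmb, Il1rl1, Grem1, Foxq1 and Col4a2. Gpnmb, the nearest at a distance of 0.29, stood at 2.54 RPKM in WT ESCs, 19.9 in Nanog-/- ESCs and 10.4 in EpiSCs. The likeness rests on 3 pooled values per gene.

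The sequences that carry the contact results are shown here for reference, each as 250 bases in lower case with any match to a GATA, SOX or forkhead core in capitals. The GATA core was searched on both strands as AGATAA, with the further spellings of AGATAG, and also of TGATAA, and lastly of TGATAG. The SOX core was searched as ACAAT, and the forkhead core was searched as TGTTTA, because 5 of the members are factors of these families. No core spelling overlaps another family's in the windows shown. Promoters are those that RefSeq (GRCm38.p6) gives before the gene start, and 3 members (Foxa2, Pdgfra and Dab2) matched an entry. Pdgfra and Dab2, which rose without Nanog, are shown, and both windows lie within the bait. The Pdgfra window is at chr5:75152001-75152250 (plus strand) and the Dab2 window at chr15:6299539-6299788 (plus strand).
Pdgfra promoter: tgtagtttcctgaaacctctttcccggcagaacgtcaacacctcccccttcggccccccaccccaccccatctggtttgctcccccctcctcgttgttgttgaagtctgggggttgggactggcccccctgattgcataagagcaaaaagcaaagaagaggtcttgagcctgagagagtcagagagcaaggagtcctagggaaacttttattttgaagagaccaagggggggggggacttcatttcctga
Dab2 promoter: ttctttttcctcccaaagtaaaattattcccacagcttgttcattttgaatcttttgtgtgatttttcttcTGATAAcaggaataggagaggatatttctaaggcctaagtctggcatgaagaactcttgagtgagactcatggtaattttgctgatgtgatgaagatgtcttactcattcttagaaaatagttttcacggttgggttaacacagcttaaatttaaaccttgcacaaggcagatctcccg
The Dab2 window held 1 GATA core (TGATAA), which 27.1% of 27025 promoters hold at the same length in any of the 4 spellings, and no SOX core (28.3%) or forkhead core (12%). The Pdgfra window held none of these letters, and its GC content was 54.4% against 36.8% for Dab2 and a median of 52% over all promoters.

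The partner fragments shown hold no bait and were in contact with their member in all 3 lists. Gata4 and Sox17 had 1 such fragment each, and of the 5 of Pdgfra the one with the highest score in WT ESCs is shown. The central 250 bases of each are given on the plus strand of GRCm38, at chr5:74941898-74942147 for Pdgfra, chr14:63359438-63359687 for Gata4 and chr1:4763286-4763535 for Sox17. By the protein-coding genes of GENCODE all 3 are intergenic, nearest to Chic2, Blk and Mrpl15.
Pdgfra partner: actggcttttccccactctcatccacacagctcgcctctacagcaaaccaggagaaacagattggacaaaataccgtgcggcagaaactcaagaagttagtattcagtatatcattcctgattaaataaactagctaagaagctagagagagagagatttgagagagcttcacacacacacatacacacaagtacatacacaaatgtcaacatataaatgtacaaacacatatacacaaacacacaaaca
Gata4 partner: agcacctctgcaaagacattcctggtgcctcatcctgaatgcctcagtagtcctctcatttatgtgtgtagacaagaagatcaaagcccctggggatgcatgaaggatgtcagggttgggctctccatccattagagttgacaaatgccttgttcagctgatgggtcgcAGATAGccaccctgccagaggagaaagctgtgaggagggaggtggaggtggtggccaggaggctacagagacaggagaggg
Sox17 partner: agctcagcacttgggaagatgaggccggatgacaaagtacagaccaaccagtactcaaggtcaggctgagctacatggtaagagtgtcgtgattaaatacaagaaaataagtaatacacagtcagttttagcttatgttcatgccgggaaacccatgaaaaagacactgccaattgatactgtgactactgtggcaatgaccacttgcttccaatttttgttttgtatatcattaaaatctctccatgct
The Gata4 partner held 1 GATA core (AGATAG), as did 36.5% of 72951 central windows of partner fragments without a bait. The Pdgfra and Sox17 windows shown held none of the cores, and the other Pdgfra partners were not searched.

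A contact is a pair of HindIII fragments listed with a CHiCAGO score of 5 or above, where the score weighs the read number against the background for that distance. The members had 35 contacts in WT ESCs, 32 in Nanog-/- ESCs and 28 in EpiSCs, and Pdgfra alone had 12, 18 and 12 of them. Over the 3 lists they made 64 different contacts, of which 42 were in 1 list, 13 in 2 lists and 9 in all 3. Lists also differed over all genes, with 41.8% of all WT ESC contacts listed in Nanog-/- ESCs and 39.6% in EpiSCs. Of these 64, 0 had a partner among the fragments of ESC super-enhancers named by the study, which allows a share of up to 4.69%, beside 0.569% of all WT ESC contacts.

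Against WT ESCs, 3 of the 7 members had more contacts in Nanog-/- ESCs (Gata4, Pdgfra and Dab2) and 4 had fewer, beside 23.1% and 64.6% of all genes with a bait in contact in either list. Of the 6 members that were over 2-fold higher, 3 had more contacts and 3 had fewer. Gata6, with the largest rise, went from 4 contacts to 1, Sox17 from 8 to 2 and Sox7 from 1 to 0. Pdgfra went from 12 to 18, Gata4 from 5 to 6 and Dab2 from 3 to 4. Foxa2, which did not pass the 2-fold line, went from 2 to 1. The members' rise in RNA thus came with contact numbers that went up, down and to 0.

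Over all 14473 genes with an RNA value and a bait in contact in either list, the genes 2-fold higher in Nanog-/- ESCs had more contacts in 23.3% of 245 cases and fewer in 61.6%, close to the 23.5% and 64.4% over all genes. Spearman's rho between the RNA difference and the contact difference across these genes was -0.00075. Genes within a list share its depth and are not independent, and the value is a description. Of the 11 genes of the primitive endoderm list that rose, 3 had more contacts, 7 fewer and 1 the same number.

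**Figure D3:**
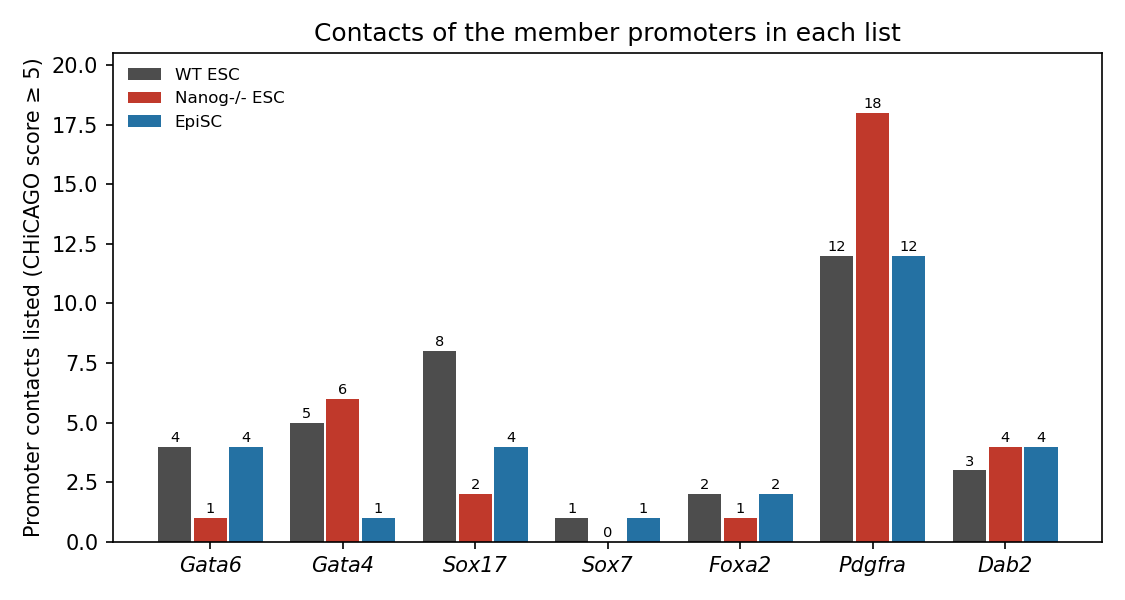
Number of promoter contacts with a CHiCAGO score of 5 or above for the baits of each member in the WT ESC (grey), Nanog-/- ESC (red) and EpiSC (blue) lists, 1 combined list per state. Red bars exceed grey bars for Gata4 (6 and 5), Pdgfra (18 and 12) and Dab2 (4 and 3) and are lower for the other 4 members.

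**Figure D4:**
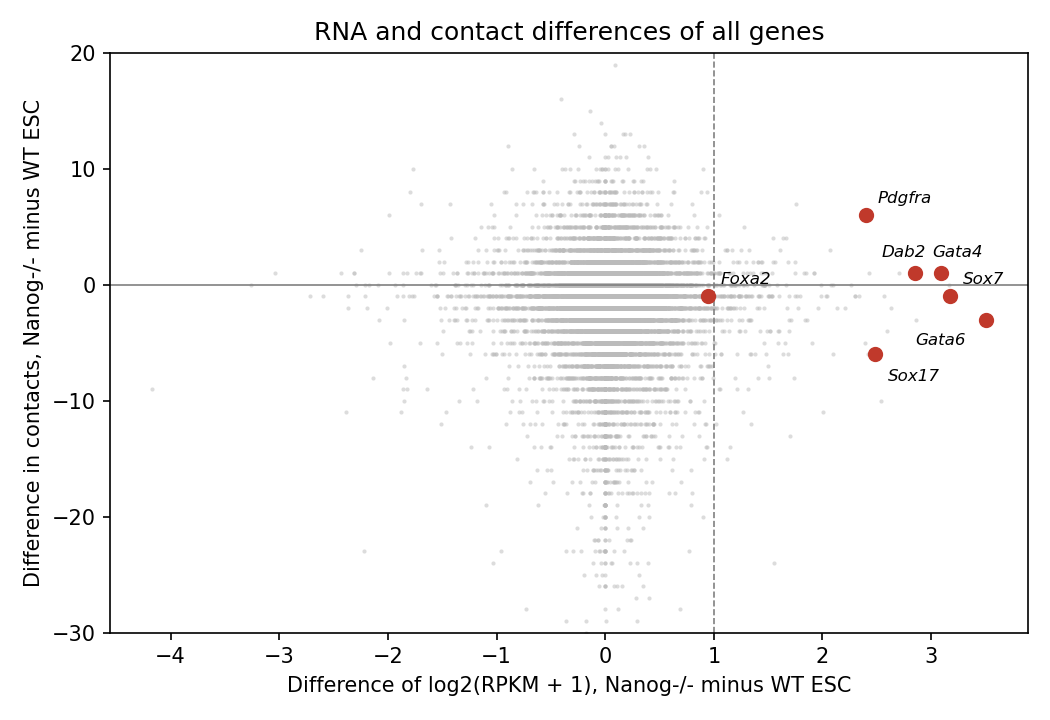
Difference of log2(RPKM + 1) (x axis) against difference in the number of contacts (y axis), Nanog-/- minus WT ESCs, for 14459 genes (grey) and the 7 members (red), with 14 genes beyond the y axis not drawn and a dashed line at 2-fold. The 6 members right of the line spread from 6 fewer contacts (Sox17) to 6 more (Pdgfra).

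The Nanog-/- list was smaller as a whole, with 0.746 times the pairs of the WT ESC list, and the factor differed between the chromosomes of the members, from 0.597 on chromosome 18 (Gata6) and 0.633 on chromosome 14 (Gata4 and Sox7) to 0.899 on chromosome 15 (Dab2). After division by the list total the 3 members with more contacts were Gata4, Pdgfra and Dab2. They were the same after division by the total of each chromosome, an alternative chosen after seeing the data. Both divisions only raise the Nanog-/- numbers, so these 3 could not drop out and their gain is not tested by them. At a score of 7 or above only Gata4 (0 to 2) and Dab2 (0 to 2) had more contacts without Nanog, Pdgfra turned to fewer (10 to 7), Sox17 and Foxa2 had 1 in both lists, and Gata6 and Sox7 had 0 in both. The Gata4 and Dab2 contacts counted there were also listed in WT ESCs, with more reads but scores under 7. By reads in contacts, scaled to the list total, only Gata4 and Pdgfra gained. The part of library depth in these counts was not tested.

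The partners also differed between the lists, as they did over all contacts. Of the 35 WT ESC contacts of the members, 16 were also listed in Nanog-/- ESCs (45.7%, Wilson 95% interval 30.5 to 61.8%, counting error only), beside 41.8% of all WT ESC contacts. Pdgfra held 8 of the 16, and without it 8 of 23 were kept (34.8%, 18.8 to 55.1%). At the 16 kept contacts the read number in Nanog-/- ESCs was between 0.462 and 0.867 times that in WT ESCs, with a median of 0.667, beside a median of 0.621 over all 41986 kept contacts. The score was higher in Nanog-/- ESCs at 11 of the 16, beside 53.0% of all kept contacts.

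Part of the changes lay between neighbouring fragments, more so in EpiSCs. When a partner within 10 kb also counted as kept, the kept WT ESC contacts in Nanog-/- ESCs went from 16 to 21 of 35. Over all contacts the kept share went from 41.8% to 63.8%. In EpiSCs the members' kept contacts went from 11 to 23 of 35, beside 39.6% to 63.2% of all. Members' contacts were also near the score threshold in WT ESCs, where 17 of 35 scored under 6, beside 37.2% of all pairs. In Nanog-/- ESCs 10 of 32 did so, beside 34.9%.

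Gata6 had no contact common to WT and Nanog-/- ESCs. Its 4 WT ESC partners lay 185 to 505 kb away with 6 to 11 reads and scores of 5.14 to 6.57, in Greb1l, in the intergenic stretch towards Mib1 and downstream of the gene. The single Nanog-/- partner, at chr18:11348722-11353944, lay 298 kb downstream with 6 reads and a score of 5.59, and was also listed in EpiSCs with 6 reads. No other bait lies in it.

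Gata4 contacts gathered in a block upstream of the gene. The block spanned 45.0 kb at chr14:63328839-63373864, with partner midpoints 55.7 to 93.2 kb from the bait, and reached from the stretch between Gata4 and Blk into Blk, of which the last fragment holds an exon. It held 3 contacts with 66 reads in WT ESCs, 6 contacts with 82 reads in Nanog-/- ESCs and 1 contact with 18 reads in EpiSCs. Contacts and Gata4 RNA were both highest in Nanog-/- ESCs and lowest in EpiSCs, but at a score of 7 or above the Gata4 contacts numbered 0, 2 and 1, lowest in WT ESCs. The gain in number lay in 3 added neighbouring fragments. All 3 WT ESC contacts of the block were kept without Nanog, with 25, 21 and 20 reads in WT ESCs and 17, 12 and 14 in Nanog-/- ESCs. Reads at kept contacts were lower over all genes too, at a median of 0.621 times. The scores of these 3 kept contacts were higher without Nanog, at 8.42, 5.55 and 7.51 against 5.52, 5.13 and 5.18. The partner printed above had 20, 14 and 18 reads in WT ESCs, Nanog-/- ESCs and EpiSCs, with scores of 5.18, 7.51 and 7.07. Blk, a tyrosine kinase gene of B cells, was at 0.0275 RPKM in WT ESCs and 0.0266 without Nanog.

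Beyond the block, WT ESCs listed contacts of Gata4 at 220.2 kb (4 reads) and, in an intron of Xkr6, at 528 kb (8 reads). Neither was listed in the other states. The nearer fragment overlaps an exon of Tdh but carries the bait name of Gm17232, not that of Tdh. Tdh, the threonine dehydrogenase gene of mouse ESCs, was at 306 RPKM in WT ESCs, 322 in Nanog-/- ESCs and 0.0836 in EpiSCs.

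Pdgfra had the most contacts of the members in each list, and its gain was also one of neighbouring fragments. A block of 26.0 kb at chr5:74940178-74966202, 188 to 211 kb upstream and intergenic, held 8 contacts with 131 reads in WT ESCs, 10 with 104 reads in Nanog-/- ESCs and 6 with 99 reads in EpiSCs. A nearer block of 21.2 kb at chr5:75065256-75086450 around Gsx2, 66.0 to 84.3 kb away, held 2, 5 and 1 contacts with 79, 98 and 37 reads. The number of contacts in both blocks was highest in Nanog-/- ESCs, as was Pdgfra RNA after scaling, whereas EpiSCs, with 5.75 times the WT ESC level, had fewer than WT ESCs. As deposited, Pdgfra RNA was slightly higher in EpiSCs (10.1 RPKM) than in Nanog-/- ESCs (9.20 RPKM). At a score of 7 or above Pdgfra had 10, 7 and 6 contacts in WT ESCs, Nanog-/- ESCs and EpiSCs.

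The contact with the promoter of Gsx2, a homeobox gene of the forebrain, had the most reads of the Pdgfra contacts in each list, with 53 reads in WT ESCs, 33 in Nanog-/- ESCs and 37 in EpiSCs and scores of 26.1, 28.7 and 17.8. Gsx2 was at 0.370 RPKM in WT ESCs, 0.228 in Nanog-/- ESCs and 0 in EpiSCs. The partner printed above had 21, 14 and 27 reads in the same order, with scores of 14.2, 12.7 and 18.6. Farther upstream, a fragment with the promoter of Fip1l1 (617 kb) was listed in Nanog-/- ESCs with 6 reads and in EpiSCs with 9 reads, and 3 contacts in an intron of Scfd2 were listed in EpiSCs only. One WT ESC contact joined Pdgfra to chromosome 10, within an intron of Rab3ip, on 4 reads.

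**Figure D5:**
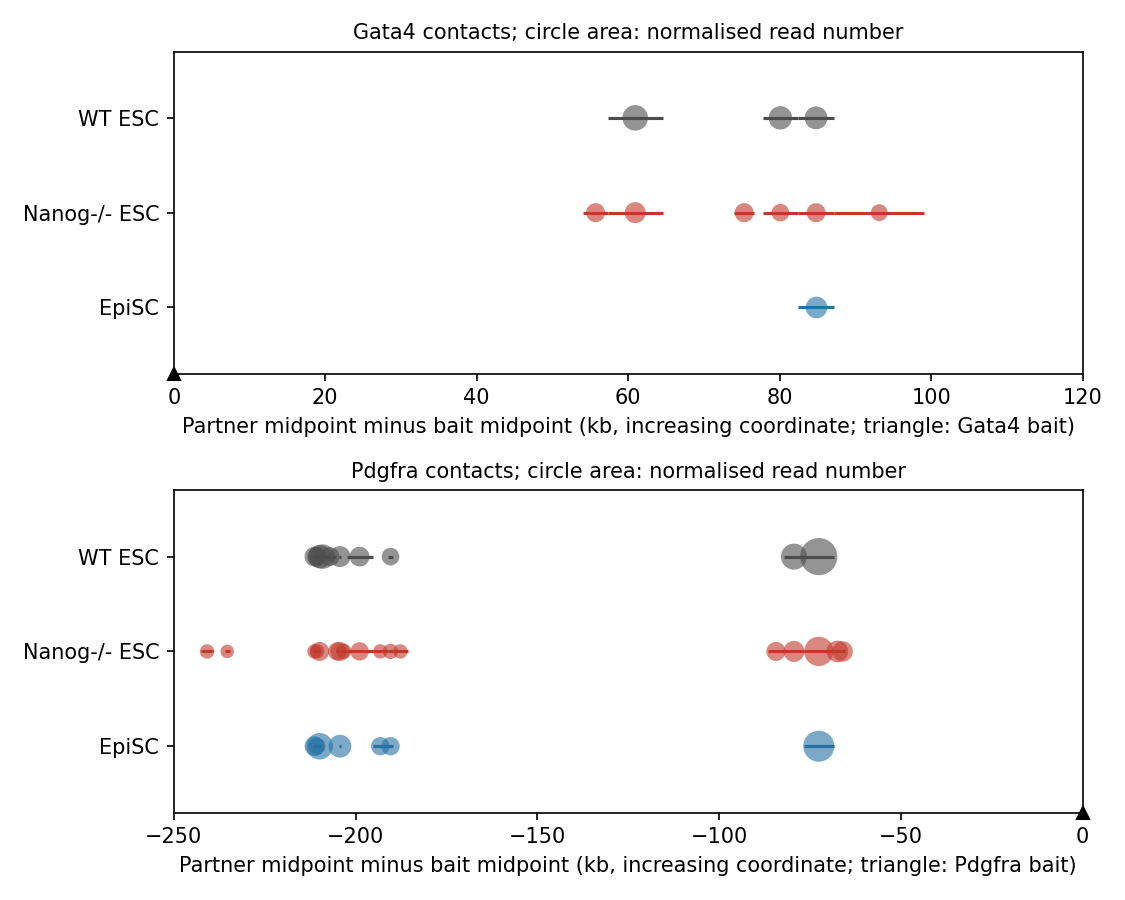
Partner fragments of the Gata4 bait (top) and Pdgfra bait (bottom) in the 3 lists by distance from the bait midpoint in kb, with bars for fragment extent and circle area proportional to the normalised read number; contacts beyond 120 kb (Gata4) or 250 kb (Pdgfra) and on other chromosomes are not drawn. The Gata4 block has 3, 6 and 1 fragments in WT ESCs, Nanog-/- ESCs and EpiSCs, and the Pdgfra block around Gsx2 has 2, 5 and 1.

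Sox17 had fewer listed contacts in both states, while its RNA rose in both. It had 8 contacts with 72 reads in WT ESCs, 2 with 12 reads in Nanog-/- ESCs and 4 with 22 reads in EpiSCs. At a score of 7 or above the numbers were 1, 1 and 2, so the fall was not seen there. A block at chr1:4763167-4786025 beside Mrpl15, 266 to 284 kb away, was in contact in every list with 4, 2 and 2 fragments. The partner printed above had 6, 4 and 6 reads, and the neighbouring Nanog-/- partner at chr1:4763834-4767685 had 8 reads with a score of 13.4. The nearest WT ESC contact, 29.1 kb away on a baited fragment that carries a U6 snRNA name (28 reads, score 6.84), was in neither of the other lists. Mrpl15, a mitochondrial ribosomal protein gene whose promoter fragment was a WT ESC partner, was at 71.3, 65.2 and 28.8 RPKM.

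Sox7 had 1 contact in WT ESCs, at 935 kb on Defb43 (5 reads, score 5.25), none in Nanog-/- ESCs and 1 in EpiSCs at 98.8 kb (11 reads, score 5.62). Its RNA was thus highest in the state without a listed contact, and a contact under a score of 5 is not listed, so it is not shown to be absent. Foxa2 kept its contact with the promoter of Pax1, a paired box gene, at 687 kb in all 3 lists, with 12, 8 and 5 reads and scores of 19.6, 13.8 and 8.22, and EpiSCs added a fragment 207 kb away with 6 reads. Its contact number was 2 in both WT ESCs and EpiSCs, between which Foxa2 RNA differed by 4.74 on the log2 scale. The Foxa2 bait is 20012 bases long and covers the whole gene, while those of Pdgfra and Dab2 at the gene start have 990 and 457 bases.

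Of the 7 different contacts of Dab2 over the 3 lists, 4 lay within the gene and 3 outside it. All 3 WT ESC contacts were kept in Nanog-/- ESCs and none in EpiSCs. Both Dab2 baits were in contact with a fragment in a Dab2 intron that carries the promoter of the non-coding gene Gm16311, with 125 and 65 reads in WT ESCs and 59 and 30 in Nanog-/- ESCs. The bait at the gene start was in contact with the second bait inside the gene in Nanog-/- ESCs (21 reads, score 6.78) and EpiSCs (31 reads, score 5.31). These were the states with higher Dab2 RNA, and this pair was not listed in WT ESCs. At a score of 7 or above the pair was in none of the lists. Dab2 contacts then numbered 0, 2 and 0 in WT ESCs, Nanog-/- ESCs and EpiSCs. A contact with C9, at 147 kb, had 10 reads in WT ESCs and 7 in Nanog-/- ESCs, and C9 RNA was at 0 RPKM in all 3 states. In EpiSCs the bait at the gene start also had a contact in an intron of Fyb (8 reads). The second bait had contacts within Dab2 (102 reads) and 83.3 kb upstream of that bait (13 reads).

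In EpiSCs 1 member had more contacts than in WT ESCs (Dab2), 2 had fewer (Gata4 and Sox17) and 4 had the same number, beside 33.9%, 53.7% and 12.3% of all genes. Of the 5 members over 2-fold higher in EpiSCs, 1 had more contacts, 1 fewer and 3 the same number. Of all 1579 such genes 43.4% had more contacts and 44.3% fewer. Over all 15095 genes with an RNA value and a bait in contact, 33.8% had more and 54% fewer. Spearman's rho between the 2 differences across them was 0.055, a description only. Of the 35 WT ESC contacts 11 were also listed in EpiSCs (31.4%, Wilson 95% interval 18.6 to 48.0%), beside 39.6% of all, and 5 of 23 without Pdgfra (21.7%, 9.66 to 41.9%). After division by the list total, 5 members (Gata6, Sox7, Foxa2, Pdgfra and Dab2) had more contacts in EpiSCs, since members with equal numbers then counted as higher.

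The genes around the members were too few to tell whether they passed the 2-fold line without Nanog more or less often than all genes. Some of them, such as Defb43 near Gata4 and C9 near Dab2, were at 0 RPKM in every state, so their difference was 0. Of 35 other genes with a value and a bait within 500 kb of a member bait, 1 was over 2-fold higher in Nanog-/- ESCs, namely Thbd (thrombomodulin, 357 kb from Foxa2, 1.20 to 4.43 RPKM), beside 1.69% of all genes. Fam167a, 160.1 kb from Gata4, was lower (5.42 to 1.48 RPKM), beside 1.35%. None of the neighbours of Gata6, Sox17, Sox7, Pdgfra or Dab2 passed the line, Kit, beside Pdgfra, being at 22.4 and 12.2 RPKM and Fdft1, beside Gata4, at 92.8 and 54.3 RPKM. In EpiSCs 2 neighbours were higher, beside 10.5% of all genes, namely Thbd (7.89 RPKM) and Ctsb beside Gata4 (50.7 to 111.5 RPKM). The 7 that were lower in EpiSCs, beside 9.64% of all genes, were Tdh, Neil2, Gm6104, Mrpl15, Tcea1, Kit and Fyb.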

How the data were processed

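PCHi-C and RNA-seq of WT ESCs, Nanog-/- ESCs and EpiSCs were used, with samples grouped by their labels. ChIP-seq samples were not analysed here. By the methods, the authors mapped PCHi-C reads with HiCUP (Bowtie 1.1.0 by the submitters' processing notes, GRCm38), scored HindIII fragment pairs with CHiCAGO and normalized and combined 2 biological replicates per cell type. The deposited lists give a normalized whole read number and a CHiCAGO score of 5 or above. The deposited RNA table gives RPKM that the authors reduced to the median of each group. The notes name Trim Galore, TopHat and DESeq2, while the gene model and counting are not given in the sources used here. The authors' fold changes and p-values in that table were not used. The column named BT12 was read as Nanog-/- ESCs from the series design text.

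Entries that name the same 2 fragments in either order were merged, with the higher read number and score. Both ends of all 96056 fragments were HindIII sites in GRCm38.p6, and genes and exons are from GENCODE M21. Partners were placed as exon, intron or intergenic by protein-coding genes only. Distances are between fragment midpoints, and a contact belongs to a member when its bait carries the gene's name. EpiSC RPKM were scaled, a pseudocount of 1 RPKM was added, and no test was run because each group is 1 pooled value. Shares carry Wilson 95% intervals. The scripts were tested on simulated data. The members and gene lists were chosen with earlier results of these data known. Named genes are all members, listed genes past 2-fold (up to 8 in Nanog-/- ESCs and 4 in EpiSCs), promoters among the 3 best contacts per list, neighbours within 500 kb past 2-fold and the 5 genes of most similar profile. Listed genes named between the lines were chosen after their values were seen. Python 3.11.15, numpy 2.4.6, pandas 2.3.3, scipy 1.17.1 and matplotlib 3.10.9 were used.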

Additional observations from a re-analysis of the deposited data

How the results depend on the processing

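No paired analysis was possible because the RNA table holds group medians and the contact lists are combined over replicates, so no replicate could be left out either. Pseudocounts of 0.1 and 0.5, a 1 RPKM filter, other scalings, a 1.5-fold line, a score of 7, and other contact counts were tried. Of 246 recomputed values 219 kept their call, or a count within 1.5 times. Part of these values could not move, since EpiSC scaling, for example, leaves every Nanog-/- against WT ESC difference as it was. The number is therefore not a measure of robustness. Without scaling, 2 members were higher in Nanog-/- ESCs than in EpiSCs, 2 primitive endoderm list genes were lower in EpiSCs (5.78% of all genes) and 11 FGF and PDGF genes were higher there (30.1%). With a pseudocount of 0.1, 19 primitive endoderm genes were higher without Nanog (5.65% of all genes) and 11 lower in EpiSCs (15.2%), and at 1.5-fold 20 were higher without Nanog (6.26%). Foxa2 passed the line without Nanog at a pseudocount of 0.1 or 0.5 (1.19 with 0.5) and at 1.5-fold. At a score of 7 or above the members had 12, 13 and 10 contacts in WT ESCs, Nanog-/- ESCs and EpiSCs, 6 and 5 WT ESC contacts were kept in Nanog-/- ESCs and EpiSCs, 1 member (Pdgfra) had fewer contacts without Nanog and 2 (Gata4 and Sox17) had more in EpiSCs. With partners within 10 kb counted as shared, 23 were kept in EpiSCs. Members with more contacts in EpiSCs numbered 2 within chromosomes, 0 with the bait with most contacts only, 5 after division by the list or chromosome total and 4 by scaled reads. The direction of the rise of the 6 members without Nanog held in every alternative. A pseudocount, the EpiSC scaling, the 1 RPKM filter and the line cannot change that direction, so they do not test it. The cause of each shift was not tested, and most contacts rest on few reads.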
